A study of Mus musculus with 9 samples.

Results

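The 8 genes described here are Dppa2, Dppa3, Dppa4, Dppa5a, Zscan4c, Zscan4d, Zscan4f and Zfp352, taken by gene symbol from a table of read counts with 52264 gene rows. All 8 symbols were found, each in 1 row. They were read in 9 RNA sequencing libraries of mouse embryonic stem cells, 3 per group. Every group carried the genotype beta-catenin-/- and was, per the labels, grown on feeder-treated dishes and expanded with LIF (40 ng/ml), PD03 (1 µM, a MEK inhibitor) and CHIR-99021 (3 µM), so the control cells had been expanded with CHIR-99021 as well. The medium was changed to N2B27 overnight. The control group was then left untreated, the BRD0705 group received that GSK3α-selective inhibitor and the CHIR group received CHIR-99021, which blocks GSK3α and GSK3β, for 30 min. The labels give no dose for this step, no parental line, no sex or clone of the cells, and no statement that replicates were separate cultures, so p-values measure the spread between these libraries, which may be technical.

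Dppa genes (developmental pluripotency associated) are transcribed in pluripotent cells, oocytes and germ cells. Dppa2 and Dppa4 are partner proteins with a DNA-binding SAP domain that bind together at promoters of germline genes and of genes of the 2-cell embryo. Dppa3, also called Stella or PGC7, protects DNA methylation of the maternal genome in the early embryo, and its binding to Uhrf1 keeps methylation low in the oocyte. Dppa5a, also called Esg1, is an RNA-binding protein with a KH domain. The Zscan4 proteins have a SCAN domain and zinc fingers, act in telomere maintenance, and are made in short bursts by a small share of stem cells that resemble the 2-cell embryo. Zfp352 is a zinc finger gene of that same 2-cell-like state.

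The Zscan4 genes are tandem copies on chromosome 7, and their likeness bears on every count given for them. In GRCm38.p6 coordinates from RefSeq, Zscan4c lies at 11005745 to 11010547, Zscan4d at 11161643 to 11166148 and Zscan4f at 11397915 to 11402318 of that chromosome. The GENCODE vM39 coding sequences of all 3 are 1518 bases long. Zscan4c and Zscan4f differ by 6 substitutions (99.6% identical), and each differs from Zscan4d by 35 (97.7% identical). The 120-base stretch with the most positions that differ among the 3, coding bases 646 to 765 counted from the A of the start codon, is shown because it holds the most letters that set Zscan4d apart. Capitals mark its 9 differing positions.
Zscan4c: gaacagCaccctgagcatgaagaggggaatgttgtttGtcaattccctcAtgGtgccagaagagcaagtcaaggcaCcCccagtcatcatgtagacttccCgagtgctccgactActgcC
Zscan4d: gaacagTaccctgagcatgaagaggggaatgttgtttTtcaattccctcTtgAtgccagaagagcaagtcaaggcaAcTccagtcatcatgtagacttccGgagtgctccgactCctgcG
Zscan4f: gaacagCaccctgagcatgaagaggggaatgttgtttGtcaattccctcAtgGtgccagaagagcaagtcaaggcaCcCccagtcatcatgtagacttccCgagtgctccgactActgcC
In this stretch Zscan4c and Zscan4f carry the same base at each capital, and Zscan4d the other, so that a read from it cannot be assigned between Zscan4c and Zscan4f. Of all 50-base windows in the GENCODE transcript, 97.7% of those of Zscan4f, 85.5% of those of Zscan4c and 49.6% of those of Zscan4d also occur unchanged in a transcript of another gene, and the sharing transcripts include the other Zscan4 genes and Zscan4 pseudogenes. How reads with several matches were counted is not given in the sources used here, so counts of single Zscan4 copies are uncertain.

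The 4 Dppa genes had 147 or more counts in each of the 9 libraries, and the Zscan4 members and Zfp352 had 0 to 14. Per kilobase of the GENCODE transcript, and as CPM (counts scaled to library size, per 1e6) averaged over 9 libraries, Dppa5a was at 987 ± 55.4, Dppa4 at 46.8 ± 3.35, Dppa2 at 44.99 ± 3.65 and Dppa3 at 10.9 ± 0.856 CPM per kilobase (SD, n = 9 each). Dppa4 and Dppa2 did not differ beyond their spread on this scale. Zscan4f was at 0.0669 ± 0.100, Zscan4c at 0.0222 ± 0.0287, Zfp352 at 0.0125 ± 0.0161 and Zscan4d at 0.0100 ± 0.0167 CPM per kilobase (SD, n = 9 each), an order within their spread. Without the length correction, the mean log2 CPM of Dppa5a stood at percentile 99.0 of the 15366 tested genes, that of Dppa2 at 90.5, of Dppa4 at 83.4 and of Dppa3 at 40.1. The other 4 members had between 4 and 26 counts over all 9 libraries together and did not pass the low-count filter, so 4 of the 8 members were tested.

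Total counts were 17359422 to 20773337 per library. Ctnnb1, which encodes β-catenin, had 5657 to 7457 counts in each library. Counts per gene do not show whether its transcript was altered, so the genotype is given as labelled. Pluripotency genes from a list were high in every library. They summed to 5333 to 5399 CPM over 14 genes in control, 5310 to 5432 in BRD0705 and 5564 to 5733 in CHIR libraries. Fibroblast markers, which a feeder layer would bring, summed to 2340 to 2821 CPM over 10 genes in control, 2993 to 3077 in BRD0705 and 2669 to 3184 in CHIR libraries. All 10 were above control in log2 fold change under each inhibitor, and Col1a1 and Col5a1, both collagen genes, passed the test in each. Of all tested genes 1.22% passed for BRD0705 and 6.3% for CHIR, and 50.97% and 52.4% were below control. Values from a fit with a score of the fibroblast markers as a covariate are given below where they turn a direction. This score was 6.33 to 6.56 in control, 6.67 to 6.75 in BRD0705 and 6.47 to 6.75 in CHIR libraries. As it did not overlap between control and BRD0705, that fit cannot fully tell the score and the BRD0705 group apart. In bulk RNA of this kind, fewer cells expressing a gene and less RNA per cell cannot be told apart.

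BRD0705 was compared with control for a response to the GSK3α inhibitor. None of the 4 tested Dppa genes passed an adjusted p of 0.05 (edgeR quasi-likelihood test, Benjamini-Hochberg over 15366 genes), where 1.22% of all tested genes did. The same count of 0 came from limma on the normalized values and from DESeq2, whose own filter gave Dppa3 no adjusted p here. Of the 4 genes 1, Dppa4, had an unadjusted p under 0.05 with each of these tools. So did 2436 of the 15366 tested genes in edgeR, and 1 of 4 is no result about the Dppa genes. All 4 had a log2 fold change below 0, with a median of -0.10, as against 50.97% of all tested genes below 0 and a median of -0.0038.

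Dppa4 lies on chromosome 16 at 48283735 to 48294292 (GRCm38.p6), with 7 exons in its GENCODE transcript. It was at 95.4, 86.9 and 85.7 CPM in control replicates 1 to 3, and at 76.9, 77.5 and 82.3 CPM in the BRD0705 replicates. Every BRD0705 library was below every control library. Dppa4 was the only 1 of the 4 genes whose groups did not overlap in this comparison, as in 20.2% of all tested genes. Its mean was 78.9 ± 2.93 CPM with BRD0705 and 89.4 ± 5.30 CPM in control (SD, n = 3 each). The log2 fold change was -0.18 ± 0.062 (SE), with a 95% interval of -0.31 to -0.049, and the adjusted p was 0.160 by edgeR. Over 22 other settings its direction did not change and its adjusted p ranged from 0.105 to 0.816, the last with the feeder score as a covariate, where the log2 fold change was -0.14. Score and BRD0705 group cannot be fully told apart in that fit.

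Dppa2, the partner of Dppa4, begins 15981 bases beyond the end of Dppa4 on chromosome 16, at 48310274 to 48319513, and has 8 exons. Its control libraries were at 159, 143 and 147 CPM, and its BRD0705 libraries at 143, 146 and 123 CPM. BRD0705 replicate 3 was below every control library while BRD0705 replicates 1 and 2 lay within the control range. The log2 fold change was -0.12 ± 0.073 (SE; 95% interval -0.27 to 0.033, edgeR adjusted p 0.450), and ranged from -0.16 to -0.037 when 1 library at a time was left out. The ratio of Dppa2 to Dppa4 counts, from which library scaling cancels, was 1.66, 1.64 and 1.71 in control and 1.86, 1.89 and 1.497 with BRD0705. BRD0705 replicate 3 thus lay below the control ratios and the other BRD0705 libraries above them.

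Dppa3 lies on chromosome 6 at 122626424 to 122630271, with 4 exons. On the opposite strand Gdf3 overlaps the gene, but none of the exonic bases of the Dppa3 transcript. Opposite-strand genes without a row in the count table overlap 18.2% of the exonic bases of Dppa5a (Gm70238) and 6.23% of those of Dppa2 (Gm60908), and without knowledge of strand use their reads cannot be told apart. Dppa3 was at 8.87, 9.40 and 9.51 CPM in control and at 10.003, 8.36 and 7.79 CPM with BRD0705. The BRD0705 libraries spanned the control values on both sides. The log2 fold change was -0.089 ± 0.11 (SE; 95% interval -0.32 to 0.14, edgeR adjusted p 0.762). Leaving out 1 library gave -0.20 (without BRD0705 replicate 1) to -0.0013 (without BRD0705 replicate 3). Its direction turned to 0.042 when library trends over GC content and length were removed.

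Dppa5a lies on chromosome 9 at 78367052 to 78368199, with 3 exons. It was at 729.7, 725 and 722 CPM in control and at 661, 689.9 and 801 CPM with BRD0705. The control libraries were nearly equal, and the BRD0705 libraries fell on both sides of them. The log2 fold change was -0.017 ± 0.063 (SE; 95% interval -0.15 to 0.11, edgeR adjusted p 0.936), and its direction was not stable: it was 0.051 with the feeder score as a covariate and 0.059 with library trends over GC content and length removed. Leaving out BRD0705 replicate 3 gave -0.094.

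**Figure D1:**
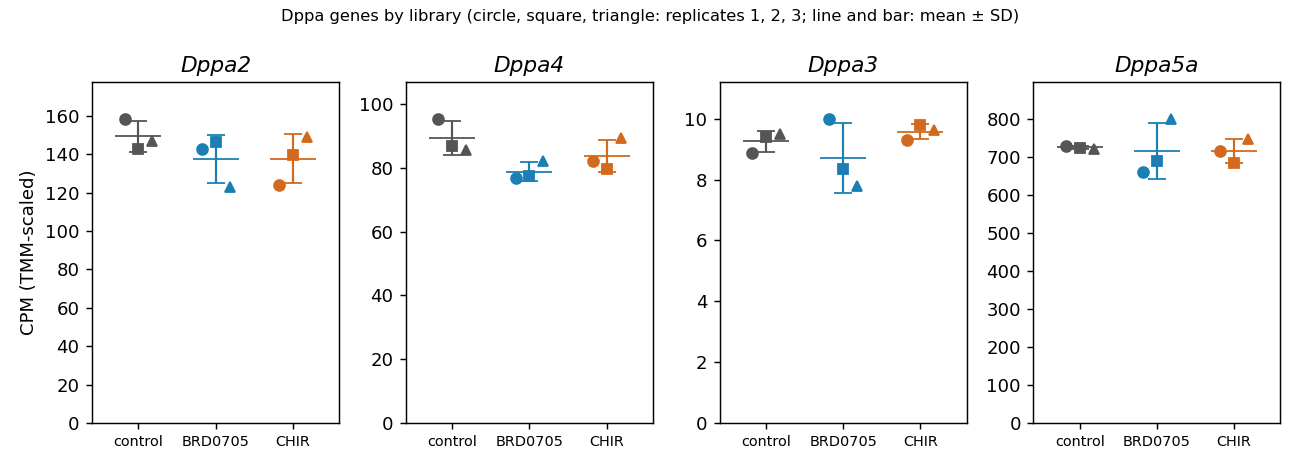
CPM (TMM-scaled, linear axis from 0) of Dppa2, Dppa4, Dppa3 and Dppa5a in the 9 libraries, grouped as control, BRD0705 and CHIR; symbols are replicates 1 to 3, lines and bars the mean ± SD (n = 3). The 3 BRD0705 libraries of Dppa4 (76.9 to 82.3 CPM) lie below its 3 control libraries (85.7 to 95.4 CPM), and the groups overlap in the other panels.

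CHIR was compared with control for a response to the inhibitor of both GSK3 forms. Again 0 of the 4 tested Dppa genes passed by edgeR, DESeq2 or limma, and 0 had an unadjusted p under 0.05 with any of these, where 6.3% of all tested genes passed the adjusted threshold in edgeR. An unadjusted p under 0.05 was reached in edgeR by 3148 of the 15366 tested genes. No member had groups that did not overlap, as against 25.1% of tested genes. Log2 fold changes were below 0 for 3 of the 4 (median -0.055), and for 52.4% of all genes (median -0.0091). This comparison and the previous one share their control libraries.

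In the CHIR replicates Dppa4 was at 82.2, 79.7 and 89.5 CPM, so that replicate 3 lay inside the control range and the other replicates below it. The log2 fold change was -0.093 ± 0.062 (SE; 95% interval -0.22 to 0.037, edgeR adjusted p 0.441), and it ranged from -0.13 without CHIR replicate 3 to -0.037 without control replicate 1. Dppa2 was at 124, 139.5 and 149 CPM, the widest range of the gene within a group. Its log2 fold change was -0.12 ± 0.073 (SE; 95% interval -0.27 to 0.035, edgeR adjusted p 0.394) and came to -0.040 without CHIR replicate 1. Dppa3 was at 9.32, 9.80 and 9.62 CPM, with a log2 fold change of 0.048 ± 0.11 (SE; 95% interval -0.18 to 0.28, edgeR adjusted p 0.862) and a range of 0.025 to 0.078 with 1 library left out. Dppa5a was at 717, 685 and 747 CPM, on both sides of the control libraries. Its log2 fold change was -0.018 ± 0.063 (SE; 95% interval -0.15 to 0.11, edgeR adjusted p 0.916), and it turned to 0.033 with the feeder score and to 0.054 with library trends removed.

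The inhibitors were also compared with each other at the shared time of 30 min; whether their doses match is not known. In 4 tests, 1 for each tested Dppa gene, 0 passed by edgeR, DESeq2 or limma and 0 had an unadjusted p under 0.05, where 7.77% of all genes passed in edgeR. An unadjusted p under 0.05 was reached in edgeR by 3452 of the 15366 tested genes. Again no member had groups that did not overlap (26.7% of tested genes). The estimates, as BRD0705 minus CHIR on the log2 scale, were -0.0017 for Dppa2 (95% interval -0.16 to 0.15), -0.087 for Dppa4 (-0.22 to 0.044), -0.14 for Dppa3 (-0.37 to 0.095) and 0.0015 for Dppa5a (-0.13 to 0.13). The edgeR adjusted p values were 0.992, 0.447, 0.507 and 0.992 in that order. With 1 library left out, Dppa3 ranged from -0.25 (without BRD0705 replicate 1) to -0.057 (without BRD0705 replicate 3), and Dppa4 from -0.12 (without CHIR replicate 2) to -0.040 (without CHIR replicate 3). These intervals bound the size of a difference that could have gone undetected; they do not show that the inhibitors act alike on these genes.

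**Figure D2:**
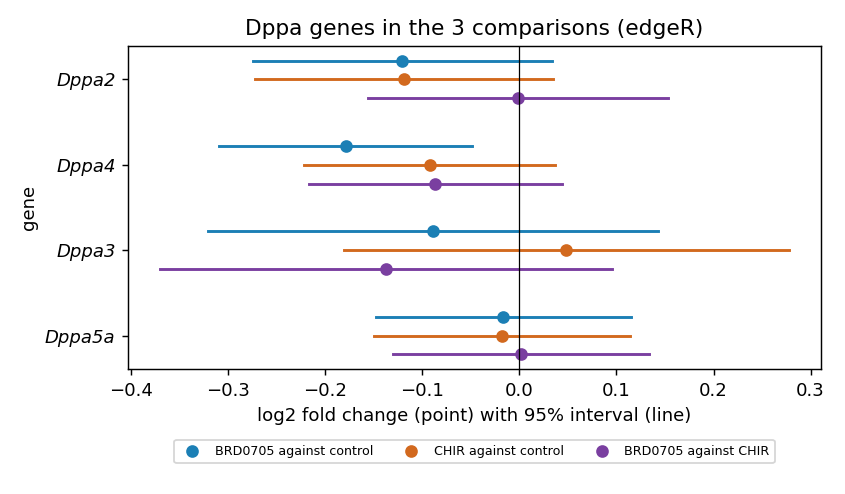
Log2 fold change (x axis; points) with its 95% interval (lines) for 4 Dppa genes (y axis) in 3 comparisons fitted with edgeR. The interval of Dppa4 in BRD0705 against control (-0.31 to -0.049) lies below 0, with an adjusted p of 0.160, and the other 11 intervals include 0.

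The spread between replicates differed by gene and by group. The coefficient of variation (SD over mean CPM) of Dppa5a was 0.564% in control, 10.3% with BRD0705 and 4.35% with CHIR, and that of Dppa3 was 3.67%, 13.2% and 2.53%. For Dppa2 it was 5.47%, 9.13% and 9.26%, and for Dppa4 5.93%, 3.71% and 6.06%. With 3 libraries a group, these values are themselves imprecise, and the difference in spread between groups was not tested.

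Pooled within groups, the SD of log2 CPM was 0.12 for Dppa2, 0.11 for Dppa3, 0.092 for Dppa5a and 0.076 for Dppa4. Among tested genes within 0.5 of its own mean log2 CPM, Dppa2 stood at percentile 92.8 for this SD (1206 genes), Dppa5a at 73.3 (187 genes), Dppa4 at 58.2 (1717 genes) and Dppa3 at 27.9 (1812 genes). Dppa2 was thus more variable between replicates than most genes of its level, and Dppa3 less. Against pure counting noise, the chi-square per degree of freedom within groups was 59.1 for Dppa5a, 18.3 for Dppa2, 4.74 for Dppa4 and 1.11 for Dppa3, with a median of 2.04 over tested genes. This ratio grows with the count for an equal relative spread, and only for Dppa3 was the spread close to counting noise.

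BRD0705 replicate 3 stood apart in several members. This library, which had the highest total count, had the highest Dppa5a and the lowest Dppa2 and Dppa3 of all 9 libraries, and 0 counts in Zscan4a to Zscan4f. Its deviations from the group mean were 0.16 for Dppa5a, 0.061 for Dppa4, -0.15 for Dppa2 and -0.15 for Dppa3 on the log2 scale. CHIR replicate 1 was nearly as low in Dppa2, at 124 CPM beside 123 CPM, with a deviation of -0.15. Low Dppa2 was thus not particular to BRD0705 replicate 3. BRD0705 replicate 3 had the strongest trend over transcript length. Across 15073 genes, the Spearman correlation between a gene's deviation and its length was -0.17, where the other 8 libraries lay between -0.11 and 0.14. For GC content the correlation in BRD0705 replicate 3 was 0.040. The strongest trends over GC content were in control replicates 1 and 2, at 0.35 and -0.29. Dppa5a and Dppa3 have the shorter transcripts (729 and 839 bases) and Dppa4 and Dppa2 the longer ones (1796 and 3145 bases). With each library's trends over GC content and length removed, the deviations in BRD0705 replicate 3 were 0.13 for Dppa5a, 0.058 for Dppa4, -0.16 for Dppa2 and -0.19 for Dppa3. A part of transcript length in these deviations was not tested.

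**Figure D3:**
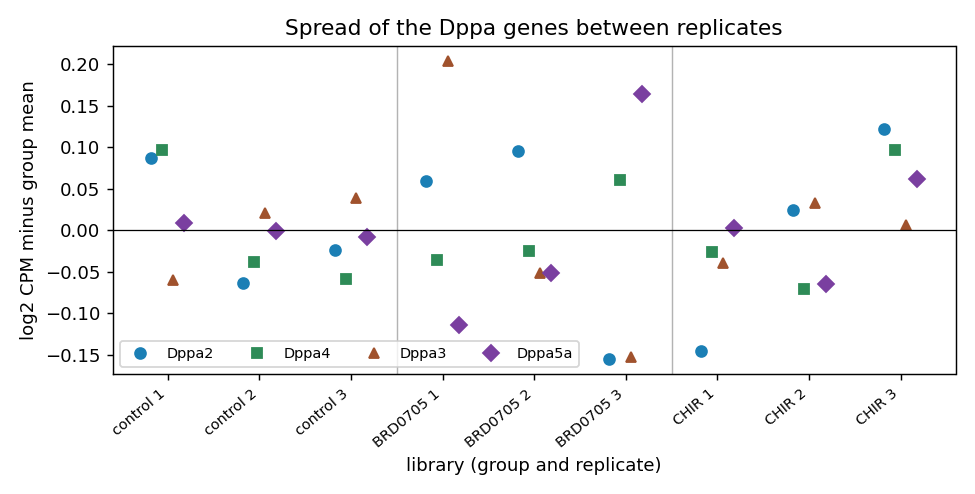
Log2 CPM minus the mean of the library's own group (y axis) for Dppa2, Dppa4, Dppa3 and Dppa5a in each of the 9 libraries (x axis). BRD0705 replicate 3 has Dppa5a at 0.16 and both Dppa2 and Dppa3 at -0.15, and the control libraries of Dppa5a lie near 0.

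Genes with the most similar pattern were found by the Pearson correlation of deviations from group means over the 9 libraries, among 12404 genes. They were Tmem138 (r = 0.985) and Agtrap (0.982) for Dppa2, Gm15459 (0.991) and Pcx (0.979) for Dppa4, Champ1 (0.979) and Trerf1 (0.954) for Dppa3, and Rps15, a ribosomal protein gene (0.979), and Fam118a (0.966) for Dppa5a. Correlations over 0.8 were reached by 563 genes for Dppa2, 189 for Dppa4, 169 for Dppa3 and 245 for Dppa5a. The 9 points share libraries and their depth and composition, and no test was made. Each named r was picked as among the highest of 12404, from 9 points with group means removed. High values can arise from this selection alone, so they do not show co-expression. The other members were not among the candidates.

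Reads of the Dppa genes could be shared with other genes, whose counted rows held few reads beside those of the members. As the counting of reads with several matches is not given, low counts there do not show that sharing was absent. Some sharing genes, such as Gm70238 for Dppa5a and Gm60908 for Dppa2, have no row in the count table. Of the 50-base windows of the transcript, 66.8% for Dppa5a, 33.2% for Dppa2, 29.4% for Dppa4 and 17.6% for Dppa3 occur unchanged in a transcript of another gene. The counted rows that share windows with Dppa5a held at most 0.577% of its own counts each, the highest being Pigp (63 to 113 counts per library). For Dppa2 the highest was Gm9788 at 0.344%, for Dppa3 Dppa3-ps at 0.498% and for Dppa4 Gm14058 at 0.197%. The paralogous rows Dppa5b and Dppa5c had 0 counts in all 9 libraries.

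The Zscan4 rows held a handful of reads per library. Zscan4c had 4, 1 and 0 counts in control replicates 1 to 3, 0 in each BRD0705 library, and 2, 1 and 1 with CHIR. Zscan4d had 1, 1 and 0 counts in control, 2, 0 and 0 with BRD0705, and 0 in each CHIR library. Zscan4f had 0, 0 and 1 counts in control, 3, 5 and 0 with BRD0705, and 14, 2 and 1 with CHIR. The value of 14 in CHIR replicate 1 was the highest of any member row outside the Dppa genes, and every other library had 5 or fewer. A row at 0 counts in a library allows a level of up to 0.142 to 0.171 CPM there (3 counts), for counting error only.

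Summed over Zscan4c, Zscan4d and Zscan4f, a group held 8 counts in control, 10 with BRD0705 and 21 with CHIR. These are 0.131 CPM (exact Poisson 95% interval 0.0564 to 0.257), 0.174 CPM (0.0836 to 0.321) and 0.372 CPM (0.230 to 0.568), where the intervals cover counting error only. By library the sums were 5, 2 and 1 in control, 5, 5 and 0 with BRD0705, and 16, 3 and 2 with CHIR, so the groups overlapped and CHIR replicate 1 held 16 of the 21 CHIR counts. With Zscan4a, Zscan4b and Zscan4e added, the mean CPM of the libraries was 0.228 in control, 0.293 under BRD0705 and 0.429 under CHIR. Without CHIR replicate 1 the CHIR mean of these 6 rows was 0.220 CPM, below control. For the 3 member rows it was then 0.137 CPM, beside 0.131 CPM in control, so the direction depends on the rows summed.

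Zscan4f was also fitted with the low-count filter removed. Then its log2 fold change was 3.7 for CHIR against control (edgeR adjusted p 0.0249) and 2.7 for BRD0705 against control (0.369). Zscan4c, nearly identical in sequence, went the other way for BRD0705 against control, at -3.8 (edgeR adjusted p 0.439). That value rests on 5 counts in control and 0 with BRD0705, so its size is not measured. Counts of single copies are uncertain, and the opposite directions are no result about Zscan4c or Zscan4f alone. With CHIR replicate 1 left out as well, which was decided with the counts in view, the edgeR adjusted p of Zscan4f for CHIR was 0.758. Zscan4c, Zscan4d and Zfp352 passed in no comparison in the unfiltered fit, where the lowest adjusted p among them was 0.368 (Zscan4c, BRD0705 against CHIR).

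Zfp352 lies on chromosome 4 at 90218820 to 90225687 (GRCm38.p6), with 2 exons, and 7.10% of its 50-base windows are shared, among others with Enah, an abundant gene with 8448 to 10025 counts per library. It had 0, 1 and 2 counts in control, 1, 0 and 0 with BRD0705, and 0, 0 and 1 with CHIR. At 5 counts over 9 libraries, it was at or under the floor of 3 counts in each group, and no fold change is given.

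**Figure D4:**
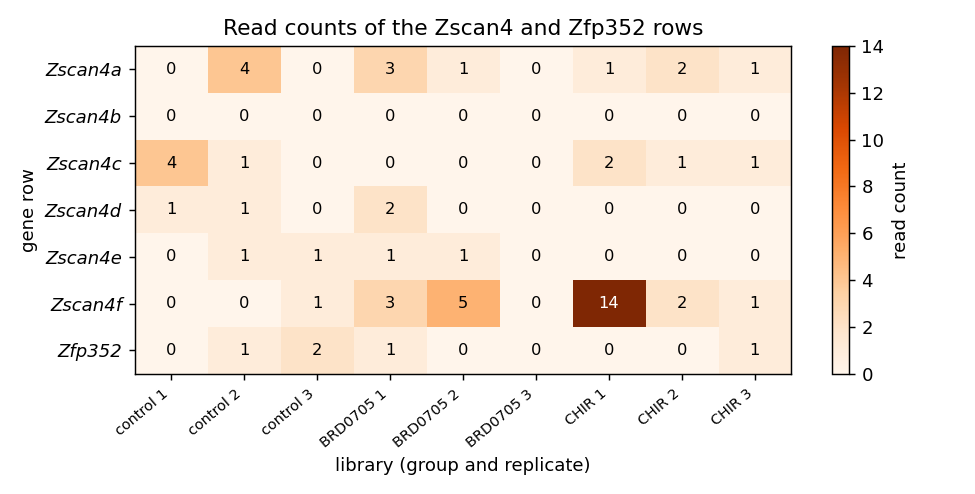
Read counts (numbers and colour) in the rows of 6 Zscan4 genes and Zfp352 (y axis) in the 9 libraries (x axis). Most cells hold 0 to 3 counts, and the Zscan4f row holds 14 in CHIR replicate 1.

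Other genes of the 2-cell-like state were taken from a list of 44 symbols. Of the 31 with a row in the table, 11 were at 0 in all 9 libraries and another 17 had counts but did not pass the filter, with at most 10 counts in a library. Among these was Duxf3 (0 to 4 counts), which encodes the transcription factor Dux that switches on the 2-cell programme. The 3 tested rows were Obox6, Duxbl1 and Sp110, and 0 of these 3 passed in any comparison by edgeR. Obox6, an oocyte-type homeobox gene, had overlapping groups, with 4.94 to 6.51 CPM in control libraries, 4.67 to 5.62 in BRD0705 libraries and 5.03 to 6.18 in CHIR libraries. Duxbl1, a Dux-like gene, had 49, 92 and 0 counts in control, 23, 58 and 72 with BRD0705, and 5, 25 and 5 with CHIR. Its control libraries spanned the whole range of the gene. Sp110 had 7 to 16 counts and Arg2, which was not tested, 1 to 10.

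Regulators of the 2-cell-like state were all tested, 19 on the list. Against control 0 of 19 passed under either inhibitor, with medians of -0.018 for BRD0705 and 0.023 for CHIR. Between inhibitors 1 of 19 passed, where 7.77% of all tested genes did, so the count is no result about the list. This gene, Sumo2, a SUMO modifier whose attachment to chromatin proteins represses the 2-cell programme, had 370.4 ± 12.1 CPM under BRD0705 against 443 ± 13.2 under CHIR (SD, n = 3 each), a log2 fold change of -0.26 ± 0.059 (SE) at an edgeR adjusted p of 0.0109. Trim28, a corepressor of retroviral elements, had the highest CPM of the list, with 2497 ± 81.5 in control, 2613 ± 37.6 in BRD0705 and 2617 ± 35.4 in CHIR libraries (SD, n = 3 each).

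Targets of Dppa2 and Dppa4 and other germline genes were tested as a list of 15, and 0 of 15 passed in any of the 3 comparisons by edgeR. Their median log2 fold change was -0.066 for BRD0705, 0.013 for CHIR and -0.092 for BRD0705 against CHIR. Tex19.1, a germ cell gene, had 118 ± 10.4, 120 ± 6.13 and 110.5 ± 6.15 CPM in control, BRD0705 and CHIR libraries, and Dazl, an RNA-binding germ cell gene, had 54.1 ± 5.12, 48.3 ± 4.29 and 56.0 ± 2.10 CPM (SD, n = 3 each).

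Of 9 genes for DNA methylation, the process Dppa3 acts on, 0 passed with BRD0705 and 1 with CHIR (all genes: 1.22% and 6.3%). In a list this short, 1 call is no result about the list. Dnmt3a, a de novo methyltransferase, fell under CHIR to 70.1 ± 2.49 CPM from 81.7 ± 4.01 CPM (SD, n = 3 each), a log2 fold change of -0.22 ± 0.058 (SE) at an edgeR adjusted p of 0.0286, and had 77.9 ± 2.84 CPM under BRD0705. Uhrf1, the binding partner of Dppa3, had 574 ± 10.8, 599 ± 24.5 and 600.1 ± 16.4 CPM in control, BRD0705 and CHIR libraries (SD, n = 3 each) and did not pass. Of the 4 chromosomal neighbours of Dppa3, namely Nanog, Gdf3, Apobec1 and Slc2a3, 0 passed in any comparison.

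Relatives of Dppa5a were partly expressed. Ooep and Khdc3, which encode KH-like proteins of the oocyte, were tested and did not pass in any comparison. Ooep was at 122 ± 4.19, 122 ± 5.39 and 124 ± 9.91 CPM in control, BRD0705 and CHIR libraries (SD, n = 3 each), and Khdc1a, Khdc1b and Khdc1c had 0 or 1 counts per library. Of 5 tested telomere genes, chosen for the role of Zscan4 at telomeres, 0 passed with BRD0705, 1 with CHIR and 1 between inhibitors. Of all tested genes 1.22%, 6.3% and 7.77% passed. In a list this short, 1 call is no result about the list. The gene was Terf2 each time, which encodes a telomere-binding protein. Terf2 fell under CHIR to 47.6 ± 3.49 CPM from 56.9 ± 1.61 CPM (SD, n = 3 each), a log2 fold change of -0.26 ± 0.062 (SE) at an edgeR adjusted p of 0.0172. Under BRD0705 it had 59.2 ± 1.21 CPM, above CHIR by 0.31 ± 0.062 (SE) on the log2 scale at an edgeR adjusted p of 0.00446.

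Among 14 naive pluripotency genes 0 passed with BRD0705 and 2 rose with CHIR by edgeR (all genes: 1.22% and 6.3%). Under CHIR 7 of the 14 were above control and 7 below (median log2 fold change 0.028), so the genes did not all move 1 way. Their summed level was 5564 to 5733 CPM in CHIR and 5333 to 5399 CPM in control libraries, without overlap. In such a sum the most abundant genes weigh most. Fgf4 was the furthest below, at -0.16 (edgeR adjusted p 0.0984). Tbx3 and Tdgf1 were above control without passing, at 0.18 and 0.17 (edgeR adjusted p 0.0507 and 0.0887). Esrrb rose from 886 ± 16.3 to 1034 ± 13.3 CPM and Klf4 from 165 ± 4.38 to 188 ± 9.33 CPM (SD, n = 3 each), with log2 fold changes of 0.22 ± 0.046 and 0.19 ± 0.054 (SE) and edgeR adjusted p values of 0.00734 and 0.0369. Both encode naive-state transcription factors. Between inhibitors 3 of 14 were lower with BRD0705, namely Klf4, Tdgf1 and Esrrb (log2 fold changes -0.35, -0.21 and -0.15). Of all tested genes 7.77% passed in this comparison, and 9 of the 14 were below 0 and 5 above. Of 7 formative genes 0 passed in any comparison. Primitive endoderm and trophectoderm markers were low, with summed levels of 16.8 to 24.9 CPM over 7 genes and 22.2 to 29.4 CPM over 5 genes. In the first list 2 of 5 tested markers passed between inhibitors, where 7.77% of all tested genes did. Against control 0 of the 5 passed under either inhibitor. The 2 were Sox7 and Pdgfra, BRD0705 being above CHIR by 0.68 and 0.53 on the log2 scale (edgeR adjusted p 0.0369 and 0.0299). Sox17 (2 to 13 counts) and Foxa2 (0 or 1 counts) of that list did not pass the filter. Which cells carried the difference was not tested.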

How the data were processed

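RNA of 9 libraries was sequenced, 3 per group, with total RNA, a TruSeq kit and ribosomal depletion per the labels' protocols; the molecule label names polyA RNA, and the series text and sample protocol name different extraction kits. The authors deposited whole-number read counts for each gene symbol, and a normalized table, used as a signal, equal to those counts divided by 1 factor per library (to within 9.87e-10). The build mm10 and the tools RSEM and DESeq2 are named in the submitters' processing notes, with no role; RSEM estimates counts, so the whole numbers may be rounded estimates. Aligner, annotation and strand use are not given in the sources used here.

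Counts were fitted across all genes with edgeR 4.0.16 in R 4.3.3: filterByExpr by group with a minimum count of 10 (15366 of 52264 rows), TMM scaling, and 3 group means over 9 libraries (6 residual degrees of freedom). The quasi-likelihood test was 2-sided, with Benjamini-Hochberg adjustment and a threshold of 0.05. The standard error of a fold change came from its F statistic. CPM use TMM-scaled library sizes; log2 CPM have a prior count of 2. DESeq2 1.42.0 and limma 3.58.1 (log2 of the normalized value + 1 or + 0.1) were alternatives. On simulated data with 200 changed genes, the edgeR fit recovered 53% of log2 changes of 0.5 and 81% of those of 1. Of its calls there 6.29% were false. Smaller changes, such as those estimated for the Dppa genes, were not simulated. Transcript length, GC content, exons, windows and coding alignments came from GENCODE vM39 on GRCm39; coordinates are RefSeq, GRCm38.p6, the assembly that mm10 names. Length and GC content were found for 98.1% of tested genes.

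The members and lists were chosen with earlier results of these data known. Named list genes were those past the threshold, at most 6 per list and comparison, or otherwise up to 4 of the highest CPM, with some named beside them after their values were seen; genes of similar pattern were the 2 of highest correlation per member with a mean of at least 10 counts, among tested non-member genes whose log2 CPM averaged 1 or more.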

Additional observations from a re-analysis of the deposited data

How the results depend on the processing

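No tested Dppa gene passed the threshold in any of 263 refitted fold changes, whose lowest adjusted p was 0.105 (edgeR, DESeq2 or limma). Of these, 234 kept their direction and 29 turned, all at an adjusted p of 0.371 or more. For the low rows, removing the low-count filter took the members past the threshold with CHIR against control from 0 to 1 (Zscan4f). Leaving out CHIR replicate 1 as well took that count back to 0. The cause of these changes was not tested. In a set of 8 rows, 1 call is no result about the members. For BRD0705 against control, the fit without the filter called 609 of 26762 rows, and the filtered fit 188 of 15366.

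Dppa5a turned with the feeder score as a covariate, to 0.051 for BRD0705 and 0.033 for CHIR against control, and with GC content and length trends of the libraries removed, to 0.059 and 0.054, or 0.056 and 0.053 together with the replicate block. That correction turned Dppa3 for BRD0705 to 0.042, and to 0.040 with the block. It was chosen after seeing the data, as was the unfiltered fit without CHIR replicate 1. Between inhibitors, Dppa5a was -0.0028 with DESeq2 and with DESeq2-type size factors, -0.00092 without the filter (-0.0039 without CHIR replicate 1 as well), -0.0012 with the replicate block and -0.010 with limma at either pseudocount. Dppa2 was 0.031 by library size only, 0.0032 at a mean CPM of at least 1, 0.0097 with the feeder score, 0.019 with the trend correction and 0.018 with the block added. Leaving out 1 library at a time, Dppa5a ranged from -0.094 to 0.042 for BRD0705, from -0.042 to 0.020 for CHIR and from -0.084 to 0.052 between inhibitors, and Dppa2 between inhibitors from -0.073 to 0.074.

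The count of all genes past the threshold moved more. For BRD0705 against control it was 188, and 489 with DESeq2, 609 without the filter (633 without CHIR replicate 1 as well), 113 with the trend correction and 112 with the block added. With the feeder score it was 0, with 1114 genes at an unadjusted p under 0.05 in edgeR. The score did not overlap between control and BRD0705 libraries, so this fit cannot fully tell score and group apart. For CHIR against control it was 968, and 195 with the feeder score, 1537 with the trend correction and 1509 with the block added. Leaving out 1 library gave 21 (without BRD0705 replicate 1) to 305 (without BRD0705 replicate 3) for BRD0705, 514 (without CHIR replicate 2) to 1070 for CHIR and 616 (without BRD0705 replicate 1) to 1313 between inhibitors, where 1194 passed. For BRD0705 the counts without control replicates 1, 2 and 3 were 292, 37 and 51, without BRD0705 replicate 2 55 and without CHIR replicate 2 98. For CHIR they were 523 and 561 without control replicates 2 and 3 and 633 without CHIR replicate 1. Between inhibitors they were 756 without BRD0705 replicate 2, and 675 and 617 without CHIR replicates 1 and 2.

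The labels give the same replicate numbers in each group, but do not say that these pair the libraries. The deviations of same-numbered libraries had correlations of -0.0897 to 0.0802 (mean -0.0012, 9 pairs), against -0.116 to 0.129 for different numbers. The replicate block gave 222, 973 and 1177 genes in the 3 comparisons and changed no call for a member. Depth limits the Zscan4 and Zfp352 rows, where 3 counts in a library are 0.142 to 0.171 CPM.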
